A study of Mus musculus with 9 samples.

Results

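CD14 and the Toll-like receptor genes were followed at 72 h in ribosome-bound RNA pulled down for retinal glia, with the optic nerve crushed in one of the groups. The members are the receptors Tlr2, Tlr3 and Tlr4, the co-receptors Cd14 and Ly96, and the adaptors and kinases Myd88, Irak4, Irak1 and Traf6, taken by gene symbol from the deposited table. Of these 9 genes, 8 have a row among the 14194 of the table, and Ly96 was not analysed here. All mice were labelled Aldhl1l-Cre/Ert2+; NuTRAP+ and had been given tamoxifen, so that Cre under the astroglial gene Aldh1l1 switched on a tagged ribosome that is pulled down with an antibody against GFP. Aldh1l1 is active in astrocytes as well as in Müller glia, the radial glia of the retina, and the pulled-down (Positive) fraction was the one sequenced. The ONC group (n = 5 libraries) had its optic nerve pinched for 3 s, roughly 1 mm from the eye, and the Control group (n = 4) came from fellow eyes, either untouched or sham-operated, which the labels do not tell apart. Each library pooled 2 retinae, and its animal pool (913/986, 914/92, 938/88, 976/978 or 981/982) is given by the labels. Pool 913/986 is represented by an ONC library alone, and the animals' ages are not given in the labels used here.

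Toll-like receptors are pattern receptors that sense microbial products and molecules released from damaged cells. CD14 is a membrane-anchored or soluble protein that captures lipopolysaccharide and hands it to TLR4, which works as a complex with MD-2, the product of Ly96. TLR2 recognises lipoproteins at the cell surface, and TLR3 binds double-stranded RNA inside endosomes. MyD88 links most of these receptors, though not TLR3, to the kinases IRAK4 and IRAK1 and to the ubiquitin ligase TRAF6, from which NF-kB and MAP kinases are activated. In nervous tissue these genes are best known from microglia, and glia of the astrocyte lineage can also carry some of them.

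Values are on the log2 scale and each gene is set to its own control baseline, so that 0 stands for an ordinary control value and 1 for a 2-fold higher one. Neither sequencing depth nor an absolute level can be recovered, so the members could not be ordered by abundance and the error of each value rests on the spread between libraries. The 12 Müller glia markers looked for were all in the table, with library medians from -0.31 to 0.45 in ONC and from -0.48 to 0.24 in Control. A higher mean in ONC was found for 8 of them, and for 7084 of all 14194 genes. Crym and Vim differed the most, by 1.22 and 0.99 (limma, adjusted p = 0.114 and 0.132). The 5 astrocyte markers had library medians from -0.01 to 0.74 in ONC and from -0.47 to 0.50 in Control. Their mean was higher in ONC for 4 of the 5. Gfap differed by 1.80 and Aldh1l1, the gene that drives Cre, by 0.68 (limma, adjusted p = 0.153 and 0.166). Markers of neurons were in the table too. The 11 of retinal ganglion cells had library medians from -1.40 to -0.70 in ONC and from -0.24 to 0.10 in Control. The 8 of rods and cones had medians from -1.09 to 0.11 in ONC and from -0.57 to 0.21 in Control. Markers of microglia and macrophages (15 of 16 in the table) had library medians from 0.28 to 2.64 in ONC and from -0.19 to 0.20 in Control, and those of other leukocytes (5 of 11) from 1.45 to 3.48 in ONC and from -0.16 to 0.50 in Control. Of these, Cd68, Aif1, Fcer1g and Tmem119 of microglia passed the expression filter in 1 of the 2 conditions. So did Cd52, S100a8 and Ptprc of other leukocytes. Such a marker can be in the table only through the group where it is high. In such bulk RNA, more cells of a type and more RNA per cell cannot be told apart. Libraries ONC 913/986 and ONC 914/92 stood apart from the rest, since the median of 4 Y-linked genes was -8.02 and -7.92 there, against -0.17 to 0.13 in the other ONC libraries and -1.18 to 0.20 in Control. Control 914/92 was at -1.18, so the ONC and Control libraries labelled as pool 914/92 did not match each other in Y-linked RNA, and values without them are given where they move a result by over 1.5 times or change its call.

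Cd14 rose after crush, and it was the 1 member of 8 that passed the test across the whole table. Its values were 1.77 in ONC 913/986, 1.36 in ONC 914/92, 1.57 in ONC 938/88, 1.77 in ONC 976/978 and 2.05 in ONC 981/982. In the control eyes Cd14 was 0.24 in pool 914/92, 0.00 in 938/88, -0.54 in 976/978 and 0.12 in 981/982. Every ONC library lay above every Control library, and the narrowest within-pool difference was still 1.12, in pool 914/92. Cd14 averaged 1.70 ± 0.26 in ONC (SD, n = 5) and -0.05 ± 0.34 in Control (SD, n = 4). The log2 difference was 1.75 ± 0.20 (SE; 95% confidence interval 1.30 to 2.20), a 3.36-fold higher level (limma, adjusted p = 0.0191). Among all genes 50 (0.352%) passed this test at an adjusted p under 0.05, 27 of them (0.190%) higher in ONC, and 481 (3.39%) had every ONC library above every Control library. The gene (ID 12475) lies on chromosome 18 from 36725067 to 36726654 on the minus strand in the deposited mm10 coordinates.

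Cd14 kept its direction in every alternative, with differences from 1.46 to 1.94, but its call did not. The adjusted p was 0.0801 with the animal pool as a block, 0.148 after quantile normalization, 0.128 without ONC 913/986 and ONC 914/92 together, 0.0950 when only genes past the expression filter in both conditions were tested, and 0.0775, 0.0751, 0.0702, 0.0556 and 0.0512 without Control 938/88, Control 976/978, ONC 913/986, ONC 938/88 and ONC 976/978 in turn. Without both libraries of pool 914/92 it was 0.0364, with a difference of 1.93. In limma without a variance trend it was 0.0036, or 0.0491 with the animal pool as a block as well. With the block, no trend and no pool 914/92 it was 0.0839.

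Cd14 and the median of the microglia markers ordered the ONC libraries differently, though ONC 914/92 was the lowest of them in both. All 15 measured microglia markers had a higher mean in ONC, as had 7084 of all 14194 genes. Their differences ran from 0.05 (Tmem119) to 3.11 (Cd68). The 1 that passed the test was Cd68, close to the threshold (limma, adjusted p = 0.0497). Cd68, Aif1, Fcer1g and Tmem119 passed the expression filter in 1 of the 2 conditions. ONC 914/92 had a microglia marker median of 0.28, against 0.20 in Control 914/92, and there Cd14 was 1.36 in ONC and 0.24 in Control. Single microglia markers in ONC 914/92 ran from -0.39 for Csf1r to 3.42 for Cd68. ONC 981/982 had the highest Cd14 value, 2.05, with a microglia median of 1.45, whereas ONC 913/986 and ONC 938/88, with microglia medians of 2.64 and 2.57, had Cd14 at 1.77 and 1.57. Medians of other leukocyte markers were 3.48, 1.45, 3.36, 1.90 and 2.81 in ONC 913/986, 914/92, 938/88, 976/978 and 981/982. The libraries highest in these markers were not the highest in Cd14, while the lowest, ONC 914/92, was also the lowest ONC library in Cd14. Over the 9 libraries, with the mean of each group removed, the Pearson correlation of Cd14 with the microglia median was 0.19 and with the Müller glia median -0.47. The part of any of these cells in the Cd14 difference was not tested.

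**Figure D1:**
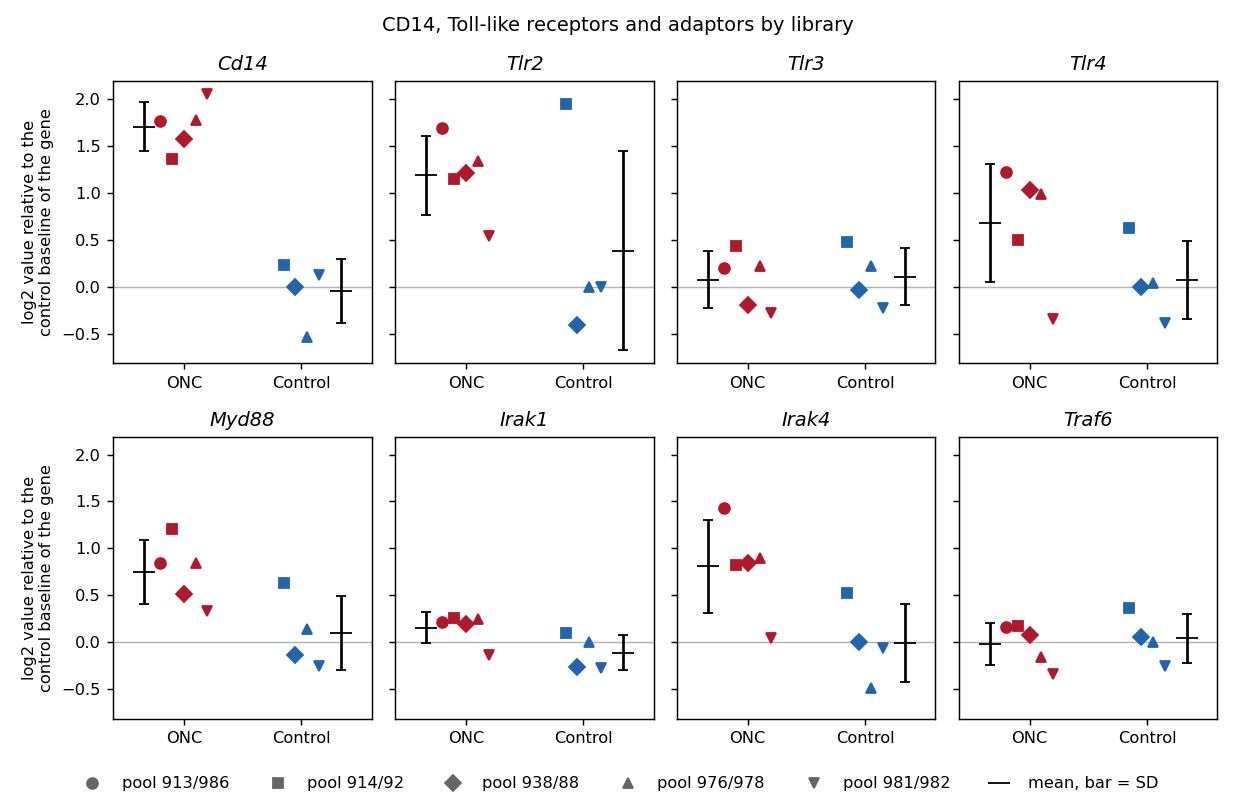
Values of the 8 measured members (y axis: log2 value relative to the control baseline of the gene) in the 5 ONC libraries (red) and 4 Control libraries (blue); marker shapes are animal pools, and black bars are the mean with its SD. The Cd14 points of the 2 groups do not overlap, and for the other 7 genes they do, with Control 914/92 at the top of its group in every panel.

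Tlr4, the signalling receptor that CD14 serves, had a higher mean in ONC but overlapping groups. Its values were 1.22, 0.50, 1.03, 0.99 and -0.35 in ONC 913/986, 914/92, 938/88, 976/978 and 981/982, against 0.63, 0.00, 0.04 and -0.39 in Control 914/92, 938/88, 976/978 and 981/982. In both groups the library of pool 981/982 was the lowest, and 3 of 5 ONC libraries lay above all controls. The difference was 0.61 ± 0.33 (SE; 95% confidence interval -0.13 to 1.34; limma, adjusted p = 0.317), and within pools it was -0.13 in 914/92, 1.03 in 938/88, 0.95 in 976/978 and 0.04 in 981/982. Tlr4 (ID 21898) lies on chromosome 4 from 66827811 to 66842796.

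Tlr2, the receptor for bacterial lipoproteins, was above 0 in all 5 ONC libraries, yet its highest value belonged to a control. It was 1.70, 1.15, 1.21, 1.34 and 0.54 in ONC 913/986, 914/92, 938/88, 976/978 and 981/982, against 1.95 in Control 914/92, -0.41 in Control 938/88, 0.00 in Control 976/978 and 0.00 in Control 981/982. No ONC library exceeded Control 914/92, and all 5 exceeded the other 3 controls. The difference of 0.80 ± 0.45 (SE; limma, adjusted p = 0.337) became 1.32 without Control 914/92 (adjusted p = 0.0673) and 1.33 without both libraries of pool 914/92 (adjusted p = 0.0861). Within pools, ONC minus Control was -0.80 in 914/92, 1.62 in 938/88, 1.34 in 976/978 and 0.54 in 981/982. Tlr2 (ID 24088) lies on chromosome 3 from 83836272 to 83841608.

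Tlr3, the endosomal receptor for double-stranded RNA, showed no difference beyond its spread. Values ran from -0.28 to 0.43 in ONC and from -0.23 to 0.48 in Control, with a difference of -0.03 ± 0.19 (SE; 95% confidence interval -0.46 to 0.39; limma, adjusted p = 0.930). In both groups pool 914/92 was the highest and pool 981/982 the lowest, and the 4 within-pool differences, from -0.16 to 0.00, were all close to 0. Tlr3 (ID 142980) lies on chromosome 8 from 45395665 to 45410539.

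The adaptor Myd88 and the kinase Irak4, whose product MyD88 recruits, were higher in all 4 pools that have both eyes, without passing the test over all genes. Myd88 was 0.85, 1.20, 0.51, 0.84 and 0.33 in ONC 913/986, 914/92, 938/88, 976/978 and 981/982, against 0.63, -0.14, 0.15 and -0.26 in Control 914/92, 938/88, 976/978 and 981/982. Only Control 914/92 reached into the range of the ONC libraries, and 3 of 5 ONC libraries lay above it. The difference was 0.65 ± 0.22 (SE; limma, adjusted p = 0.173), a 1.57-fold higher mean. Within pools the differences of Myd88 were nearly equal, 0.57 in 914/92, 0.65 in 938/88, 0.70 in 976/978 and 0.59 in 981/982. Blocked on pool and fitted without a variance trend, Myd88 passed (difference 0.63, adjusted p = 0.0483), and blocked with the trend it did not (adjusted p = 0.0801), nor without pool 914/92 in the blocked fit with no trend (adjusted p = 0.102). Myd88 (ID 17874) lies on chromosome 9 from 119335988 to 119340040.

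Irak4, the first kinase recruited to MyD88, was 1.43, 0.82, 0.84, 0.90 and 0.04 in ONC 913/986, 914/92, 938/88, 976/978 and 981/982, against 0.52, 0.00, -0.49 and -0.06 in Control 914/92, 938/88, 976/978 and 981/982. Of the 5 ONC libraries, 4 lay above all controls, and ONC 981/982 was close to the Control library of its pool. The difference was 0.82 ± 0.28 (SE; limma, adjusted p = 0.173), a 1.76-fold higher mean, and within pools it ran from 0.10 in 981/982 to 1.39 in 976/978. Taken as single genes, the exact two-sided permutation test over libraries gave an unadjusted p = 0.0159 for Cd14, the smallest that 126 regroupings allow, p = 0.0317 for Irak4 and p = 0.0476 for Myd88. The regroupings took no account of the animal pools, 4 of which gave a library to each group. In the fit over all genes, these 3 of the 8 measured members had an unadjusted p under 0.05 with a higher mean in ONC, as had 1251 of all genes (8.81%). Cd14, Myd88, Irak4 and Irak1 were higher in ONC in all 4 pools, as were 2546 of all genes (17.9%). Irak4 (ID 266632) lies on chromosome 15 from 94543660 to 94568316.

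Promoters are shown for the 3 members with the largest differences after Cd14, namely Irak4, Tlr2 and Myd88, each from 250 bases before to 50 after the gene start, in GRCm38.p6 from RefSeq. Promoters of 6 of the 8 measured members matched the RefSeq table by symbol, and those of Cd14 and Tlr4 are named only. Capitals mark matches, on either strand, to the NF-kB consensus (kappa B), the STAT motif TTCNNNGAA, the AP-1 motif TGANTCA and the interferon-stimulated response motif (GAAA, any 2 bases, GAAA).
Tlr2 (chr3:83841559-83841858, minus strand): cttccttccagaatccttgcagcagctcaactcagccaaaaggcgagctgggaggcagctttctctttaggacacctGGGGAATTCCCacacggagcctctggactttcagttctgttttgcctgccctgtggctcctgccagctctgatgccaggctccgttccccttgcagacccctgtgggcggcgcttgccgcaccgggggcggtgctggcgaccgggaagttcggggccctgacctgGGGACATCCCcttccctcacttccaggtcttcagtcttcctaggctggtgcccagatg
Myd88 (chr9:119339969-119340268, minus strand): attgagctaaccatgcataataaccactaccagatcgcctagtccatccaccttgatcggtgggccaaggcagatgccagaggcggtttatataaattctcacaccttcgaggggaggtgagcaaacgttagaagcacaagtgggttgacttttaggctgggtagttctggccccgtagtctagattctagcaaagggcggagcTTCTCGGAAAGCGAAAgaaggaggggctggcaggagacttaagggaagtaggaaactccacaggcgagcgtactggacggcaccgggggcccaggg
Irak4 (chr15:94543410-94543709, plus strand): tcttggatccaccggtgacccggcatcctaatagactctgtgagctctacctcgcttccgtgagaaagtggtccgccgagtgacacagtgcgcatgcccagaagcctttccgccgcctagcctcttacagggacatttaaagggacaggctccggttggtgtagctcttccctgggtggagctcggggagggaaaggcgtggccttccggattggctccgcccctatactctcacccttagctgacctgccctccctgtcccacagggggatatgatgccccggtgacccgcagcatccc
The Tlr2 window holds kappa B matches at 2 places, one formed by 2 overlapping matches that start 173 and 172 bases before the gene start and one that starts 8 bases before it and runs across it. The Myd88 window holds a STAT match starting 46 bases before the gene start, which overlaps an interferon-stimulated response match starting 40 bases before it. The Myd88 start used for this window lies inside the deposited gene coordinates given above, not at their end. The Irak4 window has no match to the 4 motifs, nor has that of Traf6, while those of Tlr3 and Irak1 hold a kappa B match each. Of 32851 such windows in the table, 8.46% hold a kappa B match, 8.30% a STAT match, 7.81% an AP-1 match and 3.44% an interferon-stimulated response match. A match is a string of letters and does not show that a factor binds there.

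Irak1, the kinase that IRAK4 activates, differed little. It was 0.22, 0.26, 0.19, 0.25 and -0.14 in ONC 913/986, 914/92, 938/88, 976/978 and 981/982, against 0.10, -0.27, 0.00 and -0.27 in Control 914/92, 938/88, 976/978 and 981/982. The 4 ONC libraries other than 981/982 lay between 0.19 and 0.26, above all controls, and the difference was 0.27 ± 0.12 (SE; limma, adjusted p = 0.264). Irak1 (ID 16179) is X-linked, from 74013914 to 74023921. Traf6, the ubiquitin ligase downstream of the IRAK kinases (ID 22034, chromosome 2 from 101678440 to 101700974), ran from -0.34 to 0.17 in ONC and from -0.26 to 0.37 in Control, with a difference of -0.06 ± 0.15 (SE; 95% confidence interval -0.40 to 0.29; limma, adjusted p = 0.845). Its groups overlapped throughout, and 1 of 4 pools had the higher value in ONC.

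**Figure D2:**
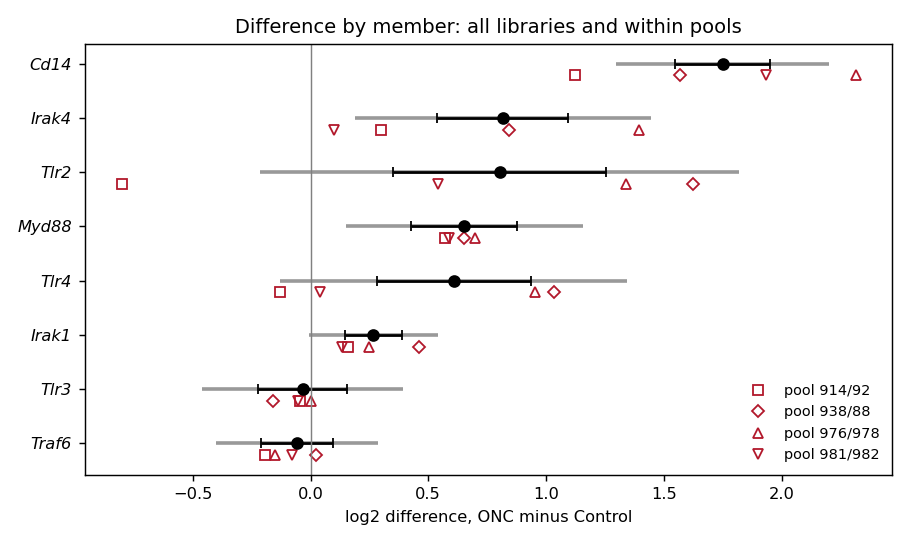
ONC minus Control difference of each measured member on the log2 scale (x axis); black points are the limma estimate over 9 libraries with its SE, grey lines its 95% confidence interval, and open red symbols the differences within the 4 animal pools that have both libraries. Cd14 lies farthest to the right at 1.75, the 4 pools of Myd88 lie between 0.57 and 0.70, and the pool values of Tlr2 spread from -0.80 to 1.62.

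The members differed in what they varied with inside a group. With the mean of each group removed, the 21 pairs among the 7 members other than Cd14 had Pearson correlations from 0.52 (Tlr3 with Irak4) to 0.98 (Tlr3 with Myd88) over the 9 libraries. Cd14 correlated with these 7 genes between -0.44 (Irak1) and 0.22 (Tlr2). The spread of such correlations between pairs of other genes was not computed. The same 7 genes went with the median of the Müller glia markers, from 0.55 for Irak4 to 0.93 for Traf6, Myd88 being at 0.90 and Tlr3 at 0.89. Correlations above 0.8 with that median were common, at 16.0% of all genes, and the 5th and 95th percentiles over all genes were -0.89 and 0.92. With the median of the microglia markers the 7 genes correlated between -0.31 (Tlr3) and 0.43 (Tlr4). All points share their libraries, and the libraries that were low in Müller glia markers, of pool 981/982 (-0.31 in ONC and -0.48 in Control), were high in endothelial markers (0.70 in ONC and 1.02 in Control). The endothelial median was lowest, at -1.70, in ONC 914/92 and was -0.85 in Control 914/92. The part of this in the differences of the members was not tested.

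**Figure D3:**
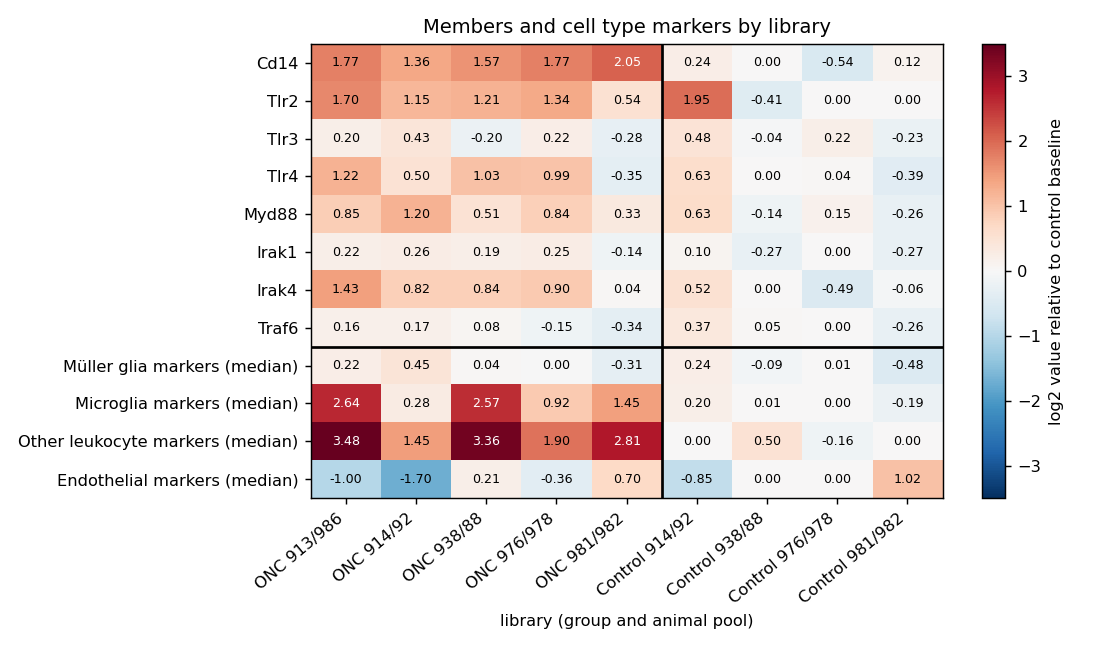
Colours and numbers give log2 values relative to the control baseline for the 8 members (rows above the line) and medians of 4 marker lists (below it) in each library (columns, ONC left of the vertical line and Control right of it). Pool 981/982 is low in both groups for Tlr4, Traf6 and the Müller glia markers, while Cd14 is highest in ONC 981/982 at 2.05, and the microglia median ranges from 0.28 to 2.64 among ONC libraries.

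Around the members, 87 genes of Toll-like receptor signalling were looked up in 8 lists, and 60 were in the table. None of the 60 passed over all genes in limma, against 0.352% of all genes. At an unadjusted p under 0.05, 16 were higher and 2 lower in ONC, against 1251 (8.81%) and 1537 (10.8%) of all genes. In 8 of the 60 every ONC library lay above every control (3.39% of all genes) and in 1 below (4.44%). Of these 8, Tlr13, S100a8 and Il1b passed the expression filter in 1 of the 2 conditions, as did 639 of all genes. They are also among the 16, and such a gene can be in the table only through the group where it is high. The median difference was 0.13 over the 60 genes, 0.63 over the 8 members and 0.00 over all genes.

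Of 9 other Toll-like receptors, Tlr5 and Tlr13 were in the table. Tlr13, which in mice senses bacterial ribosomal RNA in endosomes, was 2.92, 1.61, 2.90, 1.89 and 1.05 in ONC 913/986, 914/92, 938/88, 976/978 and 981/982, against -0.26, 0.00, 0.38 and -1.33 in Control 914/92, 938/88, 976/978 and 981/982. The groups did not overlap, and the difference was 2.38 ± 0.47 (SE; limma, adjusted p = 0.0730). Tlr13 passed the expression filter in 1 of the 2 conditions. Tlr5, the flagellin receptor, differed by 0.59 (adjusted p = 0.155), by 0.36 without pool 914/92 and by 0.39 without Control 914/92 alone. Among 7 measured genes of ligand capture and receptor traffic, the lysosomal protease Ctss differed by 1.96 and Unc93b1, the chaperone that brings TLR3 and other nucleic acid receptors to endosomes, by 1.38, both without overlap of the groups (adjusted p = 0.107 and 0.114). Cd36, a scavenger receptor that works with TLR2, differed by -0.65 (adjusted p = 0.238). For Tlr13, Ctss and Unc93b1, ONC 913/986 and ONC 938/88 had the highest values, and the microglia medians of these libraries, 2.64 and 2.57, were the highest too. The part of microglia in these genes was not tested.

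No adaptor or kinase beyond the members passed the test. The 4 measured adaptors with a TIR domain or a tie to it, Ticam1, Sarm1, Pik3ap1 and Tirap, had log2 differences of 0.26, -0.63, 0.61 and -0.06 (adjusted p from 0.292 to 0.781), Ticam1 being the adaptor that serves TLR3. The Sarm1 difference was -0.21 without ONC 913/986 and ONC 914/92, that of Ticam1 0.15 without Control 981/982, and that of Pik3ap1 0.36 without Control 976/978. Of 15 kinases and ubiquitin-linked genes the median difference was -0.01. Traf3, a ubiquitin ligase that directs signals to type I interferon, was below the controls in every ONC library, from -0.49 to -0.23 in ONC and from -0.14 to 0.07 in Control (difference -0.29 ± 0.09 SE; limma, adjusted p = 0.147). Map3k8, a kinase between NF-kB and ERK signalling, differed by 0.74 (adjusted p = 0.183) and Tab3, a partner of TAK1, by -0.31 (adjusted p = 0.342), or by -0.09 without ONC 913/986 and ONC 914/92.

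The brakes of the pathway, 11 measured genes, had a median difference of 0.21. Atf3, a stress-induced transcription factor that restrains TLR targets in macrophages, differed by 2.39 (adjusted p = 0.0626) with no overlap, from 2.59 to 3.50 in ONC and from -0.04 to 1.21 in Control. Which cells the Atf3 RNA came from was not tested, and markers of neurons were in the table too. Dusp1, a phosphatase of MAP kinases, and Nfkbia, the inhibitor IkB alpha, differed by 0.45 and 0.43 (adjusted p = 0.153 and 0.183). The 7 transcription factors had a median of 0.24, led by Irf5 with 1.16 (adjusted p = 0.107), while Rela and Irf7 differed by 0.39 and 0.34 (adjusted p = 0.285 and 0.454). Without ONC 913/986 and ONC 914/92 the Rela difference was 0.22, and without ONC 976/978 that of Irf7 was 0.14.

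Of 9 measured endogenous ligands the calcium-binding proteins S100a8 and S100a9, which form a TLR4 ligand, stood out by size, with differences of 3.04 and 2.06 and no overlap of the groups (limma, adjusted p = 0.0642 and 0.0526). S100a9 ran from 1.90 to 3.13 in ONC and from -0.16 to 1.09 in Control. S100a8 passed the expression filter in 1 of the 2 conditions. Both genes are also among the 5 measured markers of other leukocytes and set the median of that list in 3 of the ONC libraries. Of the other markers in that list, the myeloid lysozyme Lyz2 was -0.71 and Ptprc, the pan-leukocyte antigen CD45, was -2.64 in ONC 914/92, below every control, while in the other ONC libraries Lyz2 ran from 0.85 to 4.31 and Ptprc from 1.45 to 2.99. The part of leukocytes in the S100a8 and S100a9 differences was not tested. Lgals3, galectin-3, differed by 1.28 (adjusted p = 0.0970), and the median of the list was 0.14. Of 19 cytokine and chemokine targets 5 were in the table, with a median of 1.69, the value of Cxcl1. Cxcl1 and Cxcl10 passed the expression filter in 1 of the 2 conditions. Such a gene can be in the table only through the group where it is high. Il1b, the cytokine interleukin-1 beta, ran from 2.63 to 4.38 in ONC and from -1.93 to 1.20 in Control (difference 3.26 ± 0.64 SE, adjusted p = 0.0730), and it passed the expression filter in 1 of the 2 conditions. Icam1, a leukocyte adhesion molecule, differed by 1.44 (adjusted p = 0.140) and passed without Control 914/92 (1.90, adjusted p = 0.0367), where it was 1.85. Lcn2, the iron-binding lipocalin, differed by 3.96 ± 1.29 SE (adjusted p = 0.160). Its groups were barely apart, at 1.00 in ONC 914/92 against 0.83 in Control 914/92 and 0.88 in Control 981/982. In the other ONC libraries Lcn2 ran from 4.03 to 5.79. Quantile normalization reduced several differences by over 1.5 times, to 0.40 for Tlr2, 0.39 for Tlr4, 0.15 for Ticam1, 1.23 for Atf3, 0.25 for Dusp1, 1.19 for S100a9, 1.99 for S100a8 and 0.85 for Icam1.

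**Figure D4:**
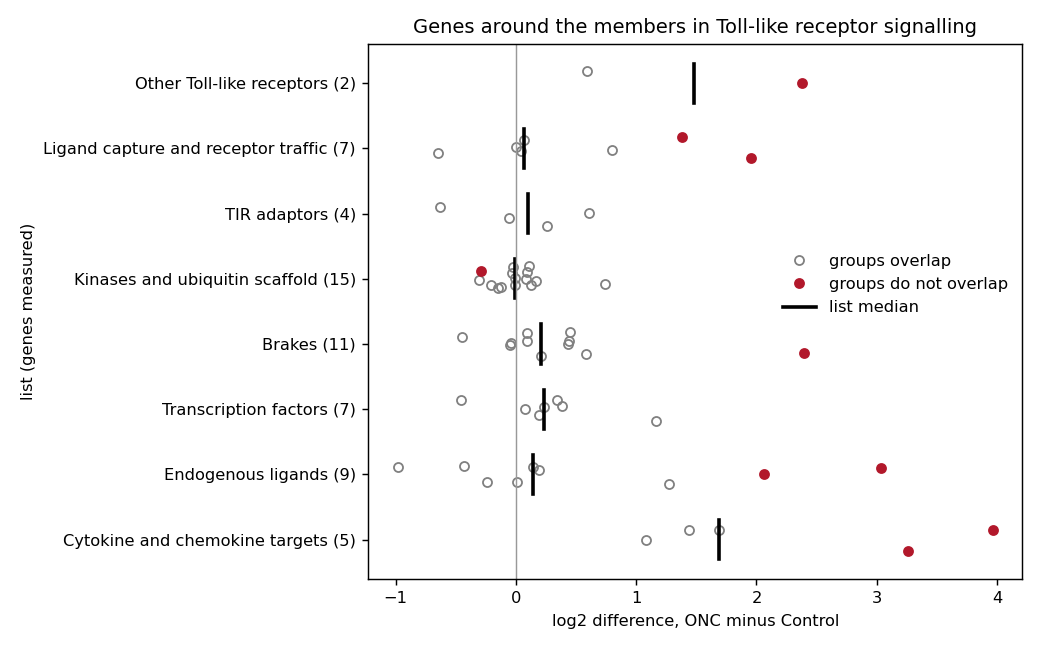
ONC minus Control differences on the log2 scale (x axis) of the 60 measured pathway genes in 8 lists (y axis, with the number measured); filled red points are genes whose groups do not overlap, open points the others, and black bars list medians. The medians of kinases, adaptors and transcription factors lie between -0.01 and 0.24, and the filled points above 1 are Tlr13, Ctss, Unc93b1, Atf3, S100a8, S100a9, Il1b and Lcn2.

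The genes whose values followed Cd14 most closely within groups, over the 9 libraries and with group means removed, were Zfp91, Mest, Aldh1a2, 2510049J12Rik, Ccnd2, Mms22l, Dbf4 and 2310015A10Rik. Their Pearson correlations with Cd14 ran from 0.887 to 0.912, and 6 genes of the table exceeded 0.9. Their own ONC minus Control differences ran from -0.17 for Zfp91 to 0.73 for 2510049J12Rik, and none passed (adjusted p from 0.380 to 0.874). With 9 libraries and 14194 genes, such values are a description only.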

How the data were processed

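The deposited table holds normalized log2 values of 9 libraries, relative to a control baseline for each gene. The header says only that the values are normalized, and the log2 scale and the baseline were read from the values, since 13230 genes have exactly 1 control library at 0. Per the file headers, genes follow RefSeq and were kept where raw values of 5 to 298892.188 were found in 100% of libraries for 1 or both of the 2 conditions. The submitters' processing notes name mm10 and DESeq, and the aligner is not given in the sources used here. Depth is therefore unknown, and no library duplicated another (at most 0.0564% equal values).

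Libraries were grouped by the treatment label and paired by animal number. The labels give the 2 libraries of a pool the same animal numbers, though those of pool 914/92 differed in Y-linked RNA. The correlations of deviations from group means within the 4 pools were 0.38 (914/92), 0.18 (938/88), -0.06 (976/978) and 0.45 (981/982). Between libraries of different pools they ran from -0.49 (ONC 981/982 with Control 914/92) to 0.41 (ONC 913/986 with Control 914/92). The test over all genes used limma 3.58.1 under R 4.3.3 (ONC against Control, variance trend, no block), two-sided, with Benjamini-Hochberg adjustment over 14194 genes and a threshold of 0.05. The mean that the trend follows is itself tied to the difference, because values are centred on controls. Replicates are pools of animals. Alternatives were the pool as a block, no trend, quantile normalization, genes past the filter in both conditions, leaving out libraries and an exact permutation test. Fits without ONC 913/986 and ONC 914/92, and blocked fits without pool 914/92, were added after seeing the data. Members and lists were chosen with earlier results of these data known. The text names all members, the 3 genes with the smallest p in each list (both where 2 were measured), and the 8 genes most like Cd14. Tirap, which completes its list, Cd68, Aif1, Fcer1g, Tmem119, Csf1r, Cd52, Lyz2, Ptprc, Cxcl1 and Cxcl10 were named after their values were seen. So were the glial markers Crym, Vim, Gfap and Aldh1l1.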

Additional observations from a re-analysis of the deposited data

Results flagged for a closer look

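Single libraries stood far from the others of their group in 3 of 62 groups examined (31 genes in ONC and in Control), where chance alone marks about 1 in 20. Irak1 was -0.14 in ONC 981/982, against 0.19 to 0.26 in the other 4 ONC libraries. Traf3 was -0.49 in ONC 914/92, against -0.28 to -0.23 in the others. Il1b was 4.38 in ONC 981/982, against 2.63 to 3.08 in the others.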

How the results depend on the processing

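Against 50 calls over all genes (27 higher and 23 lower in ONC), limma called 165 without a variance trend (73 and 92), 129 with the replicate block and no trend (68 and 61), 20 with the replicate block, no trend and no pool 914/92 (15 and 5), and 44 without pool 914/92 (41 and 3). It called 0 with the replicate block (3574 at an unadjusted p under 0.05), with that block and no pool 914/92 (2630), after quantile normalization (1848), over genes past the filter in both conditions (2672) and with ONC 913/986 and ONC 914/92 both left out (1571). Leaving out 1 library gave 0 to 68 calls, 0 to 32 higher and 0 to 36 lower. With Control 938/88 or Control 976/978 left out there were 0 calls (1954 and 1804 at an unadjusted p under 0.05). Dropping ONC 938/88 left 3, ONC 913/986 4, ONC 976/978 6, Control 981/982 8 and Control 914/92 26. The cause of these changes was not tested.

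The Cd14 difference stayed above 0 in every fit, but its adjusted p was over 0.05 with the replicate block (1.73, adjusted p = 0.0801), with it but not pool 914/92 (1.94, with an adjusted p = 0.146 with the trend and 0.0839 without it), after quantile normalization (1.46), over genes past the filter in both conditions (1.75) and with ONC 913/986 and ONC 914/92 both left out (1.84). Leaving out 1 library gave Cd14 differences from 1.58 to 1.84. Calls among the 8 members were 1 as reported and 0 to 1 when 1 library was left out, 2 with the replicate block and no trend, where Myd88 passed too (0.63), and 0 in the other settings in which Cd14 was lost. The exact permutation test of a single gene, unadjusted, put Myd88 (0.65) and Irak4 (0.82) under 0.05. Tlr3 (-0.03) and Traf6 (-0.06) lay so near 0 that their sign turned. Without pool 914/92 they were 2.4e-04 and 0.0059, without ONC 913/986 and ONC 914/92 they were -0.19 and -0.18, and leaving out 1 library gave -0.15 to 0.09 for Tlr3 (0.0904 without Control 914/92) and -0.16 to 0.05 for Traf6 (0.0530 without Control 914/92). Tlr2, Tlr4, Myd88, Irak4 and Irak1 kept their direction in all 19 fits. In the pathway lists, the 0 calls became 1 each for other Toll-like receptors (Tlr13), ligand capture and traffic (Cd36), brakes (Atf3) and endogenous ligands (S100a9) with the replicate block and no trend. Without a trend they became 1 for brakes (Atf3), 2 for ligands (S100a8 and S100a9) and 1 for cytokine targets (Il1b), and cytokine targets gave 1 (Icam1) without pool 914/92, 1 in the blocked fit without that pool and without a trend, and 0 to 1 leaving out 1 library.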
